A study of Homo sapiens with 54 samples.

Results

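BTG1, BTG2, BTG3, TOB1, TOB2 and PDCD4 are 6 genes whose products restrain cell proliferation, and they are described here as messenger RNA levels in HCT116, a human colon carcinoma line, and HepG2, a human hepatoma line. The members are the rows of these 6 symbols in the expression table, and 6 of 6 were found among 50037 gene entries. They were chosen by values measured in these same libraries. These are taken here to be the levels against the untreated control, because earlier results against it were in view. Every value against that control is therefore a description, with no test. The contrast used is not recorded, so the p-values of the other comparisons may not be independent of the choice. The set holds 54 poly(A) RNA libraries in 18 groups of 3. In each line the groups are Torin1 (1 µM), TNF-α (100 ng/mL), IL-6 (50 ng/mL) and IL-10 (50 ng/mL), each for 3 h and 6 h, and a control called NC, which received an equal volume of complete medium and has no hour in the labels. All cells grew in DMEM with serum, and no genotype was altered. The labels call HepG2 a liver cancer stem cell. They call the libraries triplicates but do not say whether separate cultures were grown, so a p-value measures the spread between libraries, which may be technical.

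BTG and TOB proteins carry no enzyme activity of their own. Through a shared N-terminal domain they bind the CNOT7 and CNOT8 deadenylases of the CCR4-NOT complex, which shorten poly(A) tails, and the TOB proteins also bind the cytoplasmic poly(A)-binding protein. BTG2 is a textbook p53 target and an immediate early gene, and BTG1 has been described as a target of FOXO3 in mouse erythroid cells. PDCD4 binds the RNA helicase eIF4A and blocks initiation of translation; the S6 kinases, which act below mTOR complex 1, phosphorylate PDCD4 and mark it for degradation through the ubiquitin ligase subunit BTRC. Torin1 blocks the mTOR kinase in both of its complexes, TNF-α acts through NF-κB, and IL-6 and IL-10 act through STAT factors. Only RNA was measured here, not protein.

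The promoter sequences of BTG1, PDCD4 and BTG2 are shown because these 3 genes differed most in level between groups. Each window is RefSeq sequence of GRCh38.p14, 250 bases before to 50 bases after the annotated start, 5′ to 3′ on the gene's strand. Capitals mark the matches to the motifs searched.
BTG1, chr12:92145797-92146096, minus strand: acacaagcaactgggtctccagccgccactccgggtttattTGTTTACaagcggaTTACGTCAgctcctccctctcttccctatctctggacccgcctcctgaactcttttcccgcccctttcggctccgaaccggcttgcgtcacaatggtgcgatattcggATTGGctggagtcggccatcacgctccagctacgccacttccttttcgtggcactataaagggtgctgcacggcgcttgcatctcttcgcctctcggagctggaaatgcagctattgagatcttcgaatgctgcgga
PDCD4, chr10:110871678-110871977, plus strand: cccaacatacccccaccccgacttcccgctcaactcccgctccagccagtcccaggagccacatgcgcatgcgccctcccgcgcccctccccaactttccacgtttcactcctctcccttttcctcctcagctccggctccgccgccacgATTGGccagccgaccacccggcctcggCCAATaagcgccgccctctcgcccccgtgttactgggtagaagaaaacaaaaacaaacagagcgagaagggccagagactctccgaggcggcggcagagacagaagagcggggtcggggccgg
BTG2, chr1:203305269-203305568, plus strand: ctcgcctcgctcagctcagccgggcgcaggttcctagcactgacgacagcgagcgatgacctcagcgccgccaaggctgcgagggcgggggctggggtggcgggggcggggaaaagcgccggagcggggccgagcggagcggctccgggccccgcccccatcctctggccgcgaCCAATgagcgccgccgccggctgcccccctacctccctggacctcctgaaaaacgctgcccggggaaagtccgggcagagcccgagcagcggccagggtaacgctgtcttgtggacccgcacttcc

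The motifs were searched on both strands in the windows of all members. The FOXO core GTAAACA was present in the BTG1 window only, on the reverse strand with its first base at -209, and 3.42% of 35116 RefSeq windows hold it. The cyclic AMP response element TGACGTNA was likewise present only for BTG1, at -195, and 3.01% of windows hold it. The CCAAT box, present in 34.6% of windows, was found in BTG1, PDCD4, BTG2 and the inner of the 2 TOB1 windows, and PDCD4 held it on each strand, at -100 and -73. The κB consensus (11.3% of windows), the AP-1 element TGANTCA (7.71%), the E-box CACGTG (7.26%), the CArG box (1.29%) and the lysosomal CLEAR core TCACGTGA (0.98%), which contains the E-box, had no match in any window of the members. A match is a run of letters, not a bound site.

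On the same build BTG1 lies on chromosome 12 at 92140278 to 92145846, BTG2 on chromosome 1 at 203305519 to 203309602, BTG3 on chromosome 21 at 17593653 to 17612901, TOB1 on chromosome 17 at 50862223 to 50867978, TOB2 on chromosome 22 at 41433494 to 41446801 and PDCD4 on chromosome 10 at 110871928 to 110900006. All 6 are protein-coding and were expressed in every library, with 706 to 8973 whole reads each. The libraries held 38.5 to 93.7 M reads. All levels are FPKM (fragments per kilobase of transcript and per M mapped fragments), which corrects for length, so levels can be set side by side between genes. Differences and their standard errors (± after a difference) are on log2(FPKM + 1); ± after a level is the SD of 3 libraries. In such bulk samples fewer cells of a type and less RNA per cell cannot be told apart. BTG4, the remaining family gene, reached at most 0.0204 FPKM. The strand setting of the counting is not given, so reads of PDCD4 and of its antisense entry PDCD4-AS1 cannot be told apart; that entry reached 0.556 FPKM in HCT116 and 2.76 FPKM in HepG2, and the antisense or divergent entries of the other members stayed at or under 0.878 FPKM.

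The treatments and lines were checked by known genes. SOCS3, a feedback inhibitor induced by STAT3, averaged 3.58 ± 0.875 FPKM with IL-6 at 3 h in HepG2 cells and 0.0836 ± 0.0363 FPKM in NC (SD, n = 3 each). In HCT116 cells it averaged 3.27 ± 0.242 FPKM with IL-6 at 3 h and 2.98 ± 0.412 FPKM in NC, where the 2 groups overlapped. At 6 h it averaged 3.91 ± 0.178 FPKM with IL-6, above every NC library. With IL-10 at 3 h it averaged 2.26 ± 0.0649 FPKM, below every NC library. IL-6 lay above IL-10 at 3 h by 0.39 ± 0.065 (limma, adjusted p = 0.00655). With TNF-α at 3 h SOCS3 averaged 4.05 ± 0.303 FPKM, above IL-6, so it did not set IL-6 apart there. NFKBIA, the inhibitor induced by NF-κB, averaged 168 ± 8.39 FPKM with TNF-α at 3 h in HCT116 cells and 9.54 ± 0.317 FPKM in NC. In HepG2 cells it averaged 443 ± 66.9 FPKM with TNF-α at 3 h and 79 ± 2.79 FPKM in NC. It also averaged 175 ± 28.3 FPKM there with IL-6, 150 ± 22.4 FPKM with IL-10 and 119 ± 7.14 FPKM with Torin1 at 3 h. A level above NC therefore did not mark TNF-α alone in HepG2 cells. IRS2, a FOXO target, averaged 3.58 ± 0.369 FPKM with Torin1 at 3 h in HCT116 cells and 1.21 ± 0.148 FPKM in NC. In HepG2 cells IRS2 averaged 1.62 ± 0.0634 FPKM with Torin1 at 3 h and 0.516 ± 0.0144 FPKM in NC. Both IL-10 receptor chains were near 0, with IL10RA at 0.248 FPKM or less and IL10RB at 0.152 FPKM or less in all libraries of either line. Of 8 hepatocyte markers 7 averaged at least 1 FPKM in HepG2 cells, and their sum in a library was 2.22 to 8.58 FPKM in HCT116 cells and 12066 to 14640 FPKM in HepG2 cells. Of 7 colon epithelial markers 2 averaged at least 1 FPKM in HCT116 cells, with a sum of 165 to 191 FPKM that was nearly all EPCAM; VIL1 and CDH17 were at or under 0.0693 FPKM. In HepG2 cells 3 of the 7 did, with a sum of 186 to 209 FPKM, and VIL1 averaged 0.0145 FPKM in HCT116 NC and 48.8 FPKM in HepG2 NC, so the colon markers did not set HCT116 cells apart. The blood markers summed to 2.98 to 6.59 FPKM in HCT116 cells with HBB at 0, and to 24.8 to 37.8 FPKM in HepG2 cells with PTPRC at 0; their part in the results was not tested. Fibroblast markers stayed at or under 1.83 FPKM in sum, with COL3A1 and LUM at 0.

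The untreated lines held the 6 transcripts at different levels. In NC libraries BTG3 averaged 18 ± 1.04 FPKM in HCT116 cells and 7.42 ± 0.301 FPKM in HepG2 cells, and TOB2 averaged 14.2 ± 0.924 FPKM in HCT116 cells and 11.2 ± 0.146 FPKM in HepG2 cells. The other 4 members were lower in HCT116 cells. PDCD4 averaged 6.3 ± 0.296 FPKM in HCT116 and 13.7 ± 0.133 FPKM in HepG2 cells. BTG2 averaged 8.75 ± 0.1 FPKM in HCT116 and 16 ± 0.412 FPKM in HepG2 cells. TOB1 averaged 22.6 ± 0.994 FPKM in HCT116 and 34.1 ± 0.894 FPKM in HepG2 cells, and BTG1 averaged 3.48 ± 0.245 FPKM in HCT116 and 5.01 ± 0.267 FPKM in HepG2 cells. The lines did not overlap for any of the 6. The share of all genes without overlap was not counted, here or in any other comparison, so a lack of overlap only describes the libraries. A linear model with moderated variances (limma), with p-values adjusted by Benjamini-Hochberg over all genes tested, called all 6 differences at an adjusted p below 0.05, with log2 differences, HCT116 minus HepG2, of 1.17 ± 0.072 for BTG3 (adjusted p = 2.77e-18), 0.32 ± 0.045 for TOB2 (2.25e-08), -1.01 ± 0.046 for PDCD4 (1.16e-22), -0.80 ± 0.056 for BTG2 (1.71e-16), -0.57 ± 0.041 for TOB1 (3.54e-16) and -0.42 ± 0.064 for BTG1 (1.12e-07). Between the lines 85.6% of the 12992 genes tested were called, so 6 of 6 lies near the background.

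Within HCT116 NC cells the levels ran TOB1, BTG3, TOB2, BTG2, PDCD4 and BTG1 from high to low. Within HepG2 NC cells the order was TOB1, BTG2, PDCD4, TOB2, BTG3 and BTG1. TOB1 was the most abundant member of the untreated cells and BTG1 the least abundant, and no 2 neighbours in either order overlapped between their 3 libraries.

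**Figure D1:**
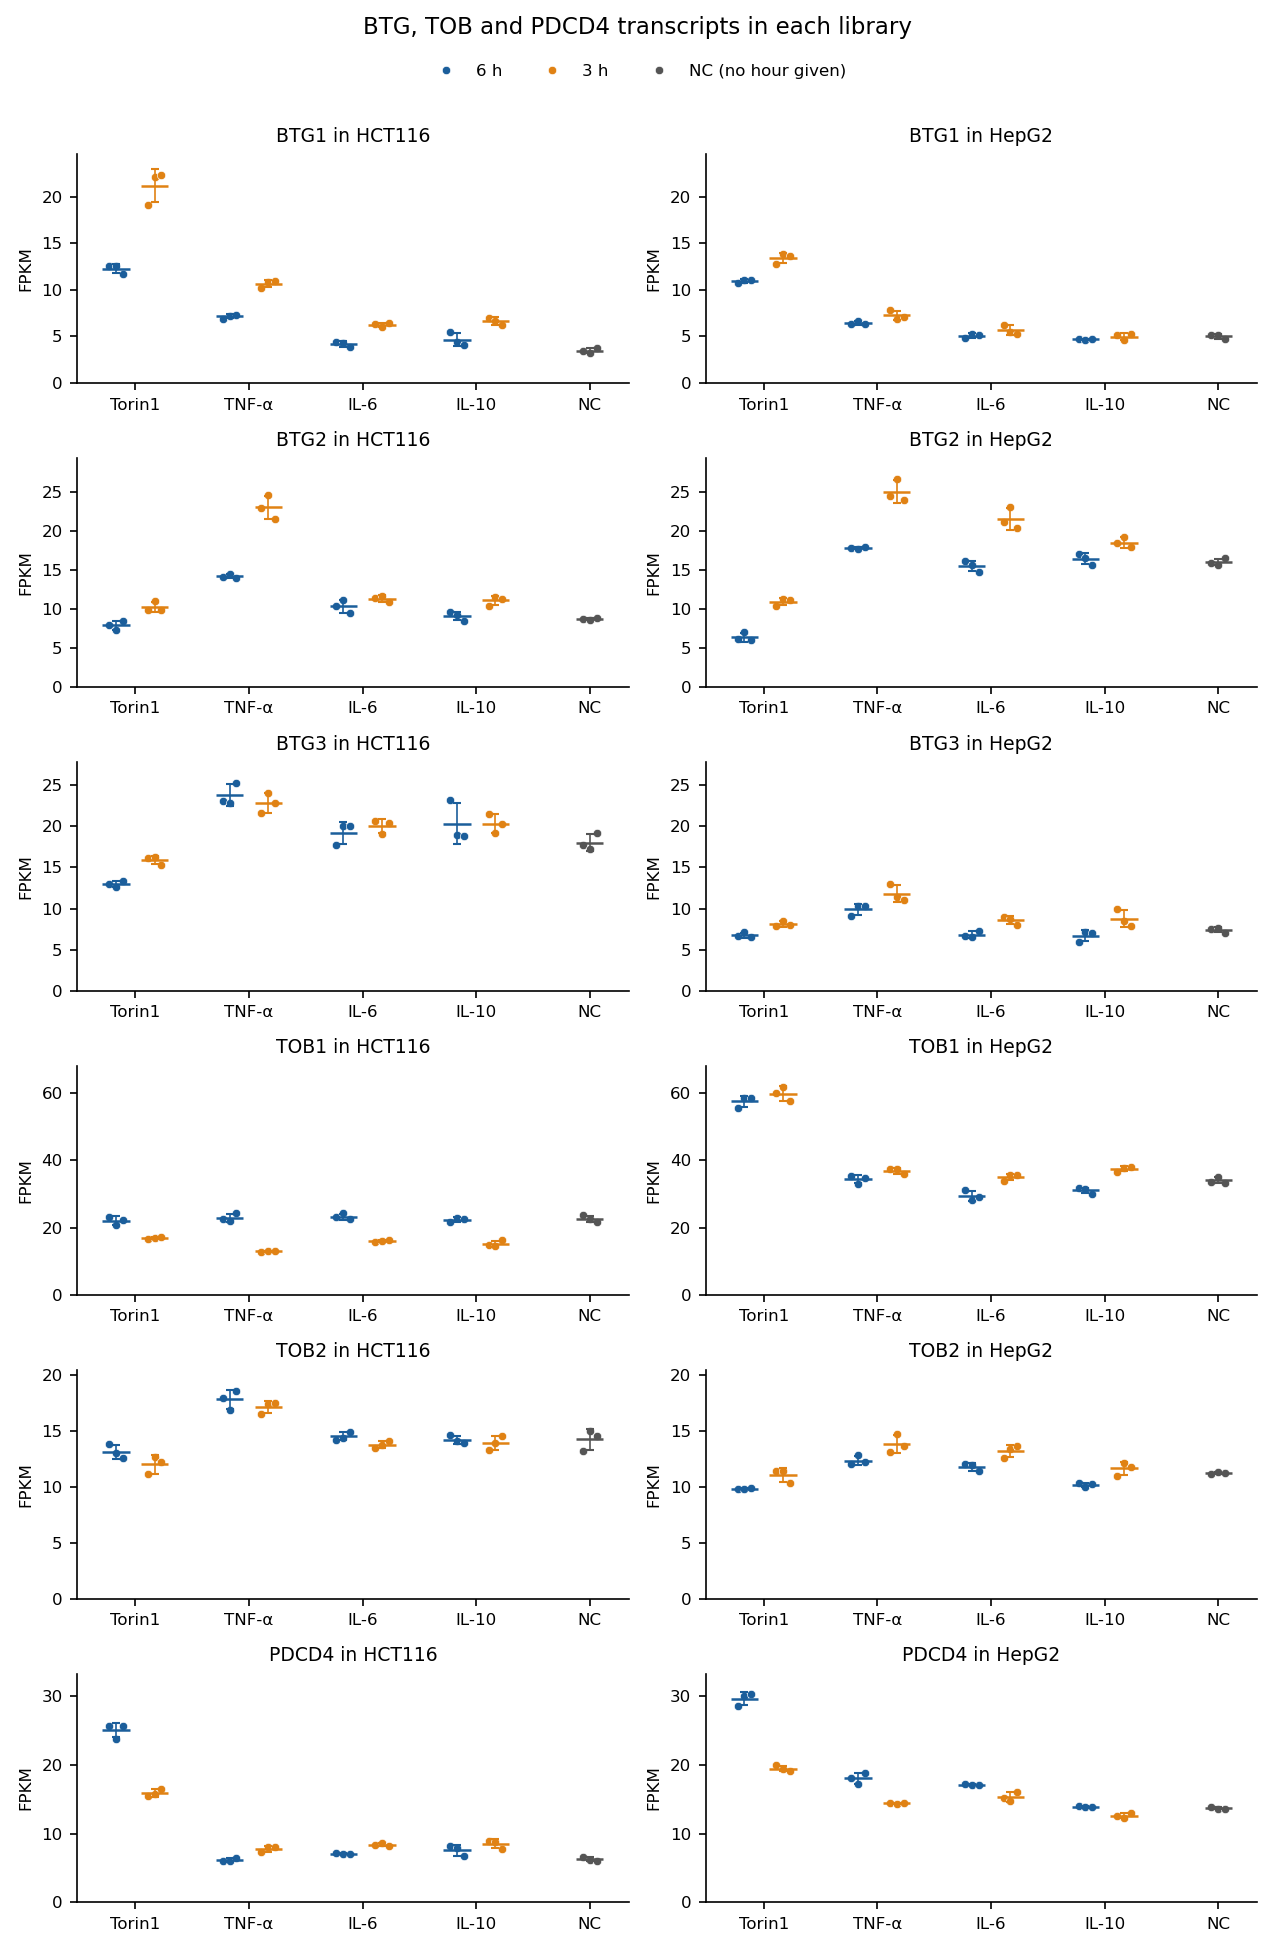
FPKM of the 6 members in each of the 54 libraries (points), with the group mean and SD, by treatment; blue points are 6 h, orange points 3 h and grey points NC. BTG1 and PDCD4 stand highest with Torin1 in both lines, BTG2 with TNF-α at 3 h, and TOB1 with Torin1 in HepG2 cells.

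BTG1, which recruits the deadenylases, had the widest range of group means of the members in HCT116 cells, 6.09-fold, while in HepG2 cells the range was 2.85-fold and that of BTG2 was wider, 3.94-fold. In HCT116 cells it measured 12.6, 12.5 and 11.7 FPKM with Torin1 at 6 h and 19.1, 22.1 and 22.3 FPKM at 3 h, against 3.43, 3.26 and 3.74 FPKM in NC. TNF-α gave 6.91, 7.21 and 7.31 FPKM at 6 h and 10.2, 10.8 and 10.9 FPKM at 3 h. IL-6 gave 6.28, 6.04 and 6.47 FPKM at 3 h, and IL-10 gave 7.01, 6.67 and 6.23 FPKM. Every treated library of HCT116 cells was above every NC library, and the Torin1 and TNF-α groups stood apart from the interleukins at the same hour. All treated groups were set against the same NC libraries, whose hour is not given. In HepG2 cells BTG1 measured 10.7, 11 and 11.1 FPKM with Torin1 at 6 h and 12.8, 13.8 and 13.6 FPKM at 3 h, against 5.13, 5.20 and 4.70 FPKM in NC. TNF-α gave 7.84, 6.90 and 7.04 FPKM at 3 h in HepG2 cells, while both IL-10 groups and IL-6 at 6 h overlapped with NC. The log2 difference from NC with Torin1 was 2.31 ± 0.071 at 3 h and 1.56 ± 0.071 at 6 h in HCT116 cells, and 1.26 ± 0.053 and 0.99 ± 0.053 in HepG2 cells; the ratio of means at 3 h was 6.09 in HCT116 cells and 2.67 in HepG2 cells.

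PDCD4, the translation repressor, was high with Torin1 and higher at the later hour. In HCT116 cells it measured 25.6, 23.8 and 25.6 FPKM with Torin1 at 6 h and 15.4, 15.8 and 16.5 FPKM at 3 h, against 6.64, 6.19 and 6.08 FPKM in NC. In HepG2 cells it measured 28.5, 30 and 30.2 FPKM with Torin1 at 6 h and 19.9, 19.3 and 19.1 FPKM at 3 h, against 13.8, 13.6 and 13.6 FPKM in NC. No Torin1 library overlapped with NC in either line. The log2 difference from NC was 1.21 ± 0.056 at 3 h and 1.83 ± 0.056 at 6 h in HCT116 cells, and 0.48 ± 0.032 and 1.06 ± 0.032 in HepG2 cells. At 6 h TNF-α gave 6.05, 5.99 and 6.44 FPKM in HCT116 cells, where it overlapped with NC, and 18.1, 17.2 and 18.8 FPKM in HepG2 cells, all above NC. IL-6 at 6 h gave 7.15, 7 and 7.01 FPKM in HCT116 cells and 17.2, 17 and 17.1 FPKM in HepG2 cells, above every NC library of its line.

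BTG2, the p53-responsive and immediate early member, was highest with TNF-α at 3 h. In HCT116 cells it measured 14.1, 14.5 and 14 FPKM with it at 6 h and 23.0, 24.6 and 21.6 FPKM at 3 h, against 8.76, 8.64 and 8.84 FPKM in NC. In HepG2 cells TNF-α gave 17.8, 17.7 and 17.9 FPKM at 6 h and 24.5, 26.7 and 24.0 FPKM at 3 h, against 15.9, 15.7 and 16.5 FPKM in NC. Torin1 gave 7.95, 7.30 and 8.47 FPKM at 6 h and 9.91, 11 and 9.86 FPKM at 3 h in HCT116 cells, below every NC library at 6 h and above at 3 h, while it gave 6.12, 7.02 and 5.97 FPKM at 6 h and 10.4, 11.3 and 11.1 FPKM at 3 h in HepG2 cells, all below NC. The log2 difference from NC with Torin1 at 6 h was -0.13 ± 0.058 in HCT116 cells and -1.21 ± 0.052 in HepG2 cells, and that with TNF-α at 3 h was 1.30 ± 0.058 in HCT116 cells and 0.62 ± 0.052 in HepG2 cells.

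TOB1, which bridges the deadenylases and the poly(A)-binding protein, was above NC with Torin1 in HepG2 cells and below NC at 3 h in HCT116 cells. In HepG2 cells Torin1 gave 55.7, 58.6 and 58.5 FPKM at 6 h and 60.1, 62.0 and 57.6 FPKM at 3 h, against 33.7, 35.1 and 33.4 FPKM in NC, and no other HepG2 library exceeded 38.2 FPKM. In HCT116 cells Torin1 gave 23.2, 20.7 and 22.4 FPKM at 6 h and 16.6, 16.9 and 17.2 FPKM at 3 h, against 23.6, 22.5 and 21.7 FPKM in NC. All 4 treatments of HCT116 cells were below NC at 3 h, with means of 16.9 ± 0.251 FPKM for Torin1, 12.9 ± 0.264 FPKM for TNF-α, 16.1 ± 0.225 FPKM for IL-6 and 15.2 ± 0.901 FPKM for IL-10, and all 4 overlapped with NC at 6 h, with means of 22.1 to 23.3 FPKM. These comparisons share the NC libraries, whose hour is not given.

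TOB2 varied least over the groups in either line, 1.48-fold in HCT116 and 1.41-fold in HepG2 cells. BTG3 varied 1.83-fold in HCT116 cells, about as much as TOB1 (1.81-fold), and 1.77-fold in HepG2 cells. TOB2, the close relative of TOB1, averaged 12 to 17.8 FPKM over the HCT116 groups and 9.82 to 13.8 FPKM over the HepG2 groups. It was highest with TNF-α in either line, at 17.9, 16.9 and 18.6 FPKM at 6 h in HCT116 cells against 13.2, 15.0 and 14.5 FPKM in NC, and at 13.1, 14.7 and 13.6 FPKM at 3 h in HepG2 cells against 11.1, 11.3 and 11.2 FPKM in NC. BTG3, which like BTG1 and BTG2 binds the deadenylases, averaged 13 to 23.8 FPKM in HCT116 cells and 6.68 to 11.8 FPKM in HepG2 cells. It measured 13, 12.6 and 13.4 FPKM with Torin1 at 6 h and 23.1, 22.9 and 25.3 FPKM with TNF-α at 6 h in HCT116 cells, against 17.7, 17.2 and 19.2 FPKM in NC. In HepG2 cells TNF-α at 3 h gave 13, 11.4 and 11.1 FPKM, against 7.51, 7.68 and 7.09 FPKM in NC. The second row of the table with the BTG3 symbol never exceeded 0.0662 FPKM.

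Against NC the same model called 61 of 96 differences of the members, 48 of them upward. Because the choice of the genes is taken to have used this contrast, nothing is read from these counts. In HCT116 cells 6 members were called with Torin1 at 3 h, where 53.7% of all 11395 genes were, 3 at 6 h (57.2%), 6 with TNF-α at 3 h (41.6%), 4 at 6 h (33.9%), 4 with IL-6 at 3 h (31.6%), 2 at 6 h (16.6%), 4 with IL-10 at 3 h (38.8%) and 2 at 6 h (20.5%). In HepG2 cells 4 were called with Torin1 at 3 h, where 45.5% of all 11280 genes were, 5 at 6 h (59.9%), 5 with TNF-α at 3 h (29.7%), 5 at 6 h (28.7%), 4 with IL-6 at 3 h (33.9%), 2 at 6 h (19.4%), 4 with IL-10 at 3 h (19.1%) and 1 at 6 h (11.7%). Leaving out single libraries ended 13 of these calls, none of a difference beyond 0.23: BTG1 with IL-6 at 6 h in HCT116 and at 3 h in HepG2, BTG2 with IL-6 at 6 h in HCT116 and with IL-10 at 3 h and TNF-α at 6 h in HepG2, BTG3 with Torin1 at 3 h in HCT116 and with IL-10 at 3 h in HepG2, PDCD4 with IL-10 at 6 h in HCT116 and at 3 h in HepG2, TOB1 with IL-10 at either hour and TNF-α at 3 h in HepG2, and TOB2 with TNF-α at 6 h in HepG2.

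IL-10 gives each treatment a partner of the same hour. It was not without change against NC although its receptor transcripts were near 0: at 3 h 18 of 23 immediate early genes rose and 1 fell in HCT116 cells (median 0.34), 19 of 19 rose in HepG2 cells (median 0.64), and NFKBIA averaged 150 ± 22.4 FPKM with IL-10 and 79 ± 2.79 FPKM in NC in HepG2 cells. BTG2 counts as such a gene, and the part of these changes in its differences from IL-10 was not tested. Of all genes, IL-10 at 3 h against NC called 38.8% in HCT116 cells and 19.1% in HepG2 cells. The comparison with IL-10 is a contrast other than the one taken to have guided the choice, although the treated libraries are the same, as they are in the comparison of the hours. Since the contrast that guided the choice is not recorded, the p-values of both comparisons may not be independent of it. With Torin1, BTG1 and PDCD4 were higher at either hour in either line. BTG1 was higher by 1.54 ± 0.071 at 3 h (adjusted p = 1.07e-12) and 1.24 ± 0.071 at 6 h (5.68e-12) in HCT116 cells, and by 1.27 ± 0.053 (9.36e-14) and 1.07 ± 0.053 (4.01e-13) in HepG2 cells. PDCD4 was higher by 0.83 ± 0.056 at 3 h (3.50e-10) and 1.60 ± 0.056 at 6 h (8.86e-15) in HCT116 cells, and by 0.59 ± 0.032 (3.66e-12) and 1.04 ± 0.032 (1.81e-16) in HepG2 cells. The Torin1 and IL-10 groups did not overlap for either gene in any of these 4 comparisons. In HepG2 cells TOB1 and BTG2 also changed with Torin1. TOB1 rose by 0.66 ± 0.037 at 3 h (8.29e-12) and 0.87 ± 0.037 at 6 h (3.24e-14), and BTG2 fell by 0.71 ± 0.052 at 3 h (5.34e-10) and by 1.25 ± 0.052 at 6 h (2.65e-14). In HCT116 cells the TOB1 difference was 0.15 ± 0.045 at 3 h (0.00999) and -0.02 ± 0.045 at 6 h (0.786), and the BTG2 difference -0.11 ± 0.058 (0.143) and -0.18 ± 0.058 (0.011). BTG3 fell in HCT116 cells, by 0.33 ± 0.067 at 3 h (0.000387) and 0.60 ± 0.067 at 6 h (1.24e-07), while in HepG2 cells the intervals of the difference, -0.25 to 0.06 at 3 h and -0.14 to 0.17 at 6 h, held 0. TOB2 fell in HCT116 cells at 3 h, by 0.19 ± 0.048 (0.00213).

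With Torin1 against IL-10, 5 members were called at 3 h and 4 at 6 h in HCT116 cells, where 44.3% and 57.3% of all genes were, and 4 at each hour in HepG2 cells, where 45.5% and 59.0% were. A pair of these calls were lost in alternatives: the TOB1 call at 3 h in HCT116 cells was lost without the second IL-10 library (0.11, adjusted p = 0.0646) and under total FPKM scaling (0.12, 0.0538), and the BTG2 call at 6 h without the first IL-10 library (-0.15, 0.06) or the second Torin1 library (-0.13, 0.0815) and with voom (-0.15, 0.0685).

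TNF-α against IL-10 moved BTG2 and BTG1 in either line. BTG2 rose by 0.99 ± 0.058 at 3 h (adjusted p = 1.66e-11) and 0.59 ± 0.058 at 6 h (6.08e-08) in HCT116 cells and by 0.42 ± 0.052 at 3 h (6.73e-06) in HepG2 cells, where the difference at 6 h was 0.11 ± 0.052 (0.118). BTG1 rose by 0.61 ± 0.071 (1.18e-06) and 0.54 ± 0.071 (3.66e-06) in HCT116 cells and by 0.47 ± 0.053 (1.83e-06) and 0.38 ± 0.053 (1.02e-05) in HepG2 cells at 3 h and 6 h. TOB2 rose in all 4 comparisons by 0.23 to 0.31, with adjusted p-values of 2.74e-05 to 0.000426. BTG3 rose in HepG2 cells by 0.39 ± 0.074 at 3 h (0.000823) and 0.51 ± 0.074 at 6 h (1.62e-05). PDCD4 rose in HepG2 cells, by 0.36 ± 0.032 at 6 h (1.90e-08), and fell in HCT116 cells, by 0.26 ± 0.056 at 6 h (0.000812). TOB1 fell by 0.21 ± 0.045 at 3 h in HCT116 cells (0.000778) and rose by 0.15 ± 0.037 at 6 h in HepG2 cells (0.00423). The fit called 4 members at 3 h and 5 at 6 h in HCT116 cells (36.5% and 42.3% of all genes), and 5 at each hour in HepG2 cells (16.1% and 34.8%). The BTG3 call in HCT116 cells at 6 h, 0.22 ± 0.067 (0.0116), was lost without the second or the third IL-10 library or the third TNF-α library, with differences of 0.17 to 0.18 and adjusted p-values of 0.0671 to 0.0704. With only the groups compared in the fit it was lost as well (0.0868), as was that of BTG3 in HepG2 cells at 3 h (0.0501).

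IL-6 against IL-10 gave small differences in HepG2 cells. PDCD4 rose by 0.26 ± 0.032 at 3 h (adjusted p = 3.99e-06) and 0.28 ± 0.032 at 6 h (1.12e-06), TOB2 by 0.17 ± 0.041 (0.00448) and 0.19 ± 0.041 (0.0018), and BTG2 at 3 h by 0.21 ± 0.052 (0.00689). With only the groups compared in the fit the TOB2 and BTG2 calls at 3 h were lost (adjusted p = 0.0964 and 0.0901). The BTG1 call at 3 h, 0.16 ± 0.053 (0.0396), was lost without the first or second IL-10 library or the first IL-6 library, with differences of 0.09 to 0.17 and adjusted p-values of 0.0534 to 0.21. That makes 4 members at 3 h and 2 at 6 h, where 22.8% and 23.6% of all genes were called. In HCT116 cells 0 of 6 members were called at 3 h and 0 of 6 at 6 h, in a comparison that called 0.237% and 0.114% of all genes by limma. At an unadjusted p below 0.05 the counts were 0 at 3 h and 1 at 6 h, and voom on the recovered reads called 0 at either hour. The largest difference was 0.17 ± 0.058 for BTG2 at 6 h, with an adjusted p of 0.282 and a 95% interval of 0.05 to 0.29.

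**Figure D2:**
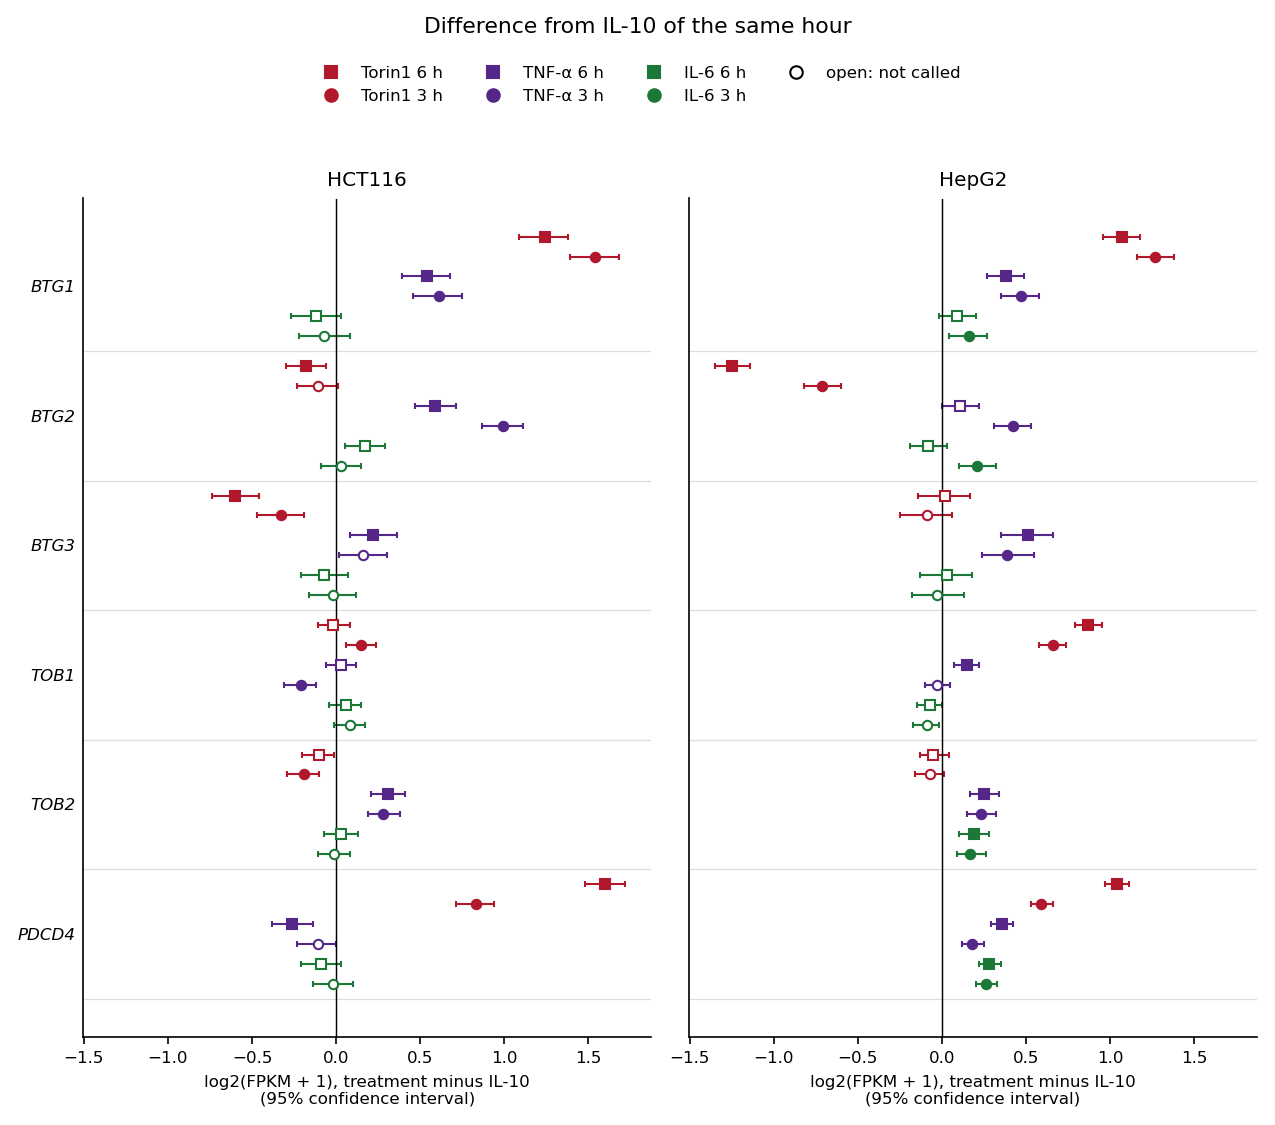
Difference of Torin1, TNF-α and IL-6 from IL-10 of the same hour on log2(FPKM + 1), with 95% confidence intervals from the fit; filled symbols are called at an adjusted p below 0.05. Torin1 intervals for BTG1 and PDCD4 lie above 0 in either line, and those for TOB1 and BTG2 lie on opposite sides of 0 in HepG2 cells.

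At 6 h against 3 h of the same treatment the members took separate courses. BTG1 fell in all 4 treatments of HCT116 cells, by 0.74 ± 0.071 with Torin1 (adjusted p = 1.05e-07), 0.51 ± 0.071 with TNF-α (9.09e-06), 0.49 ± 0.071 with IL-6 (4.15e-05) and 0.44 ± 0.071 with IL-10 (0.000112). In HepG2 cells it fell by 0.27 ± 0.053 with Torin1 (0.000431). TOB1 ran the other way in HCT116 cells, where it rose by 0.37 ± 0.045 with Torin1 (2.53e-06), 0.78 ± 0.045 with TNF-α (4.33e-11), 0.51 ± 0.045 with IL-6 (5.90e-08) and 0.53 ± 0.045 with IL-10 (2.72e-08). In HepG2 cells TOB1 fell by 0.24 ± 0.037 with IL-6 (4.77e-05) and 0.27 ± 0.037 with IL-10 (2.27e-05), and the difference with Torin1 was -0.06 ± 0.037 (0.264). BTG2 fell by 0.66 ± 0.058 with TNF-α (2.32e-08) and 0.34 ± 0.058 with Torin1 (0.000153) in HCT116 cells, and by 0.69 ± 0.052 with Torin1 (2.00e-09), 0.47 ± 0.052 with TNF-α (9.30e-07) and 0.45 ± 0.052 with IL-6 (1.81e-06) in HepG2 cells.

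PDCD4 was higher at 6 h than at 3 h with Torin1, by 0.62 ± 0.056 in HCT116 cells (adjusted p = 4.64e-08) and 0.58 ± 0.032 in HepG2 cells (1.62e-11). With TNF-α it fell by 0.30 ± 0.056 in HCT116 cells (0.000303) and rose by 0.31 ± 0.032 in HepG2 cells (3.31e-07). With IL-6 it fell by 0.22 ± 0.056 in HCT116 cells (0.00808) and rose by 0.15 ± 0.032 in HepG2 cells (0.00138). In HepG2 cells TOB2 fell in all 4 treatments by 0.15 to 0.17, with adjusted p-values of 0.00467 to 0.00853, and BTG3 in all 4 by 0.23 to 0.35. Not all of these calls held in the alternatives. TOB2 was lost with TNF-α (-0.10, adjusted p = 0.145) and IL-10 (-0.11, 0.115) under total FPKM scaling and, with only the groups compared in the fit, with TNF-α (0.07) and IL-6 (0.0693). BTG3 was lost with TNF-α without the filter (0.0692), under total FPKM scaling (0.0979) and with only the groups compared (0.0644), and with IL-10 with only the groups compared (0.069). That last fit also ended the PDCD4 call with IL-6 (0.0739). In HCT116 cells limma on the values as deposited called TOB2 in 0 of 4 treatments. An unadjusted p below 0.05 was found for 1, and voom on the recovered reads called 1, Torin1 (0.14, 0.0357). Limma called TOB2 with Torin1 under median-of-ratios scaling (0.13, 0.0349) and total FPKM scaling (0.14, 0.0142). It also did so without the second Torin1 library of 3 h (0.16, 0.0267) or the third of 6 h (0.15, 0.0462). BTG3 fell there with Torin1, by 0.28 ± 0.067 (0.0034), and its differences with the other 3 treatments, -0.06 to 0.05, were not called.

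Of the 6 members, 5 were called between the hours with Torin1 in HCT116 cells (30.4% of all genes), 4 with TNF-α (37.3%), 3 with IL-6 (18.4%) and 3 with IL-10 (20.0%). In HepG2 cells 5 were called with each treatment, against 36.4% of all genes with Torin1, 25.4% with TNF-α, 23.5% with IL-6 and 16.0% with IL-10. In HepG2 cells 5 of these calls were lost on leaving out single libraries. They were BTG1 with TNF-α (-0.14 to -0.10 without the first TNF-α library of 3 h or the first or the third of 6 h), BTG2 with IL-10 (-0.17 to -0.13 without the first or second library of 3 h or the second or the third of 6 h), BTG3 with TNF-α (-0.18 to -0.17 without the first library of either hour) and with Torin1 (-0.22 to -0.21 without the second library of 3 h or the first or the third of 6 h), and TOB2 with TNF-α (-0.11 without the second library of 3 h).

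**Figure D3:**
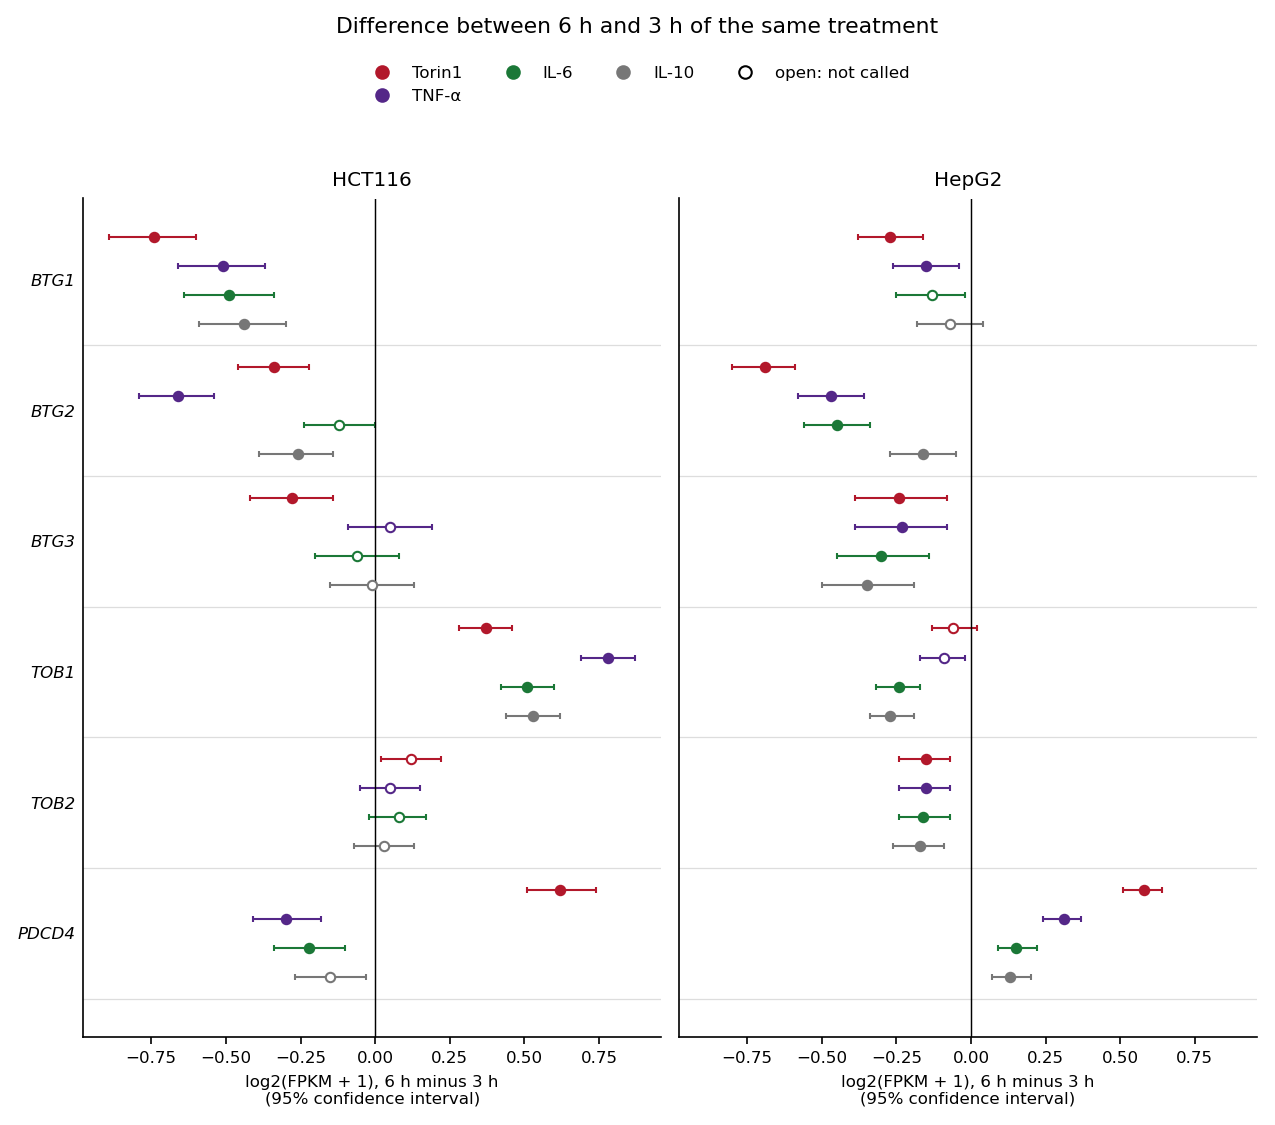
Difference between 6 h and 3 h of each treatment on log2(FPKM + 1), with 95% confidence intervals from the fit; filled symbols are called. In HCT116 cells BTG1 lies below 0 and TOB1 above 0 with each treatment, and PDCD4 lies above 0 with Torin1 in either line.

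The effect against NC in HCT116 cells minus that in HepG2 cells is built from the same values against NC that are taken to have guided the choice, so it too is a description, with no p, and nothing is read from its counts. With Torin1 at 3 h this difference was -1.19 ± 0.058 for TOB1, 1.05 ± 0.090 for BTG1, 0.73 ± 0.065 for PDCD4 and 0.72 ± 0.080 for BTG2. With Torin1 at 6 h it was 1.08 ± 0.080 for BTG2, 0.77 ± 0.065 for PDCD4, -0.77 ± 0.058 for TOB1 and 0.57 ± 0.090 for BTG1. The Torin1 values of BTG1 and PDCD4 stood further above NC in HCT116 cells, where their NC levels were lower. With TNF-α at 6 h the difference was -0.41 ± 0.065 for PDCD4. At 3 h the TOB1 difference was negative with all 4 treatments, from -1.19 to -0.51. All 4 share the NC libraries of each line, whose hour is not given, so they are not separate observations.

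The fit called 31 of 48 such differences. Of the 6 members 6 were called with Torin1 at 3 h (39.9% of the 9683 genes tested), 5 at 6 h (50.1%), 5 with TNF-α at 3 h (22.9%), 3 at 6 h (16.8%), 4 with IL-6 at 3 h (33.3%), 2 at 6 h (15.8%), 3 with IL-10 at 3 h (24.4%) and 3 at 6 h (16.8%). Leaving out single libraries, NC included, ended 6 of the 31: BTG3 with Torin1 at 3 h (-0.26 to -0.24 without the third NC library of either line, the third HCT116 Torin1 or the second HepG2 Torin1 library), with TNF-α at 3 h (-0.29 to -0.22 without the first or the third library of NC in either line or of TNF-α in HCT116, or the first TNF-α library in HepG2) and with IL-10 at 6 h (0.20 to 0.29 without the first or second NC library or the first IL-10 library of either line), PDCD4 with TNF-α at 3 h (0.17 to 0.19 without the second or the third library of HCT116 NC or of HCT116 TNF-α) and with IL-10 at 6 h (0.16 to 0.19 without the first or second IL-10 or the third NC library of HCT116), and BTG2 with IL-6 at 6 h (0.21 to 0.23 without the second HCT116 or the third HepG2 IL-6 library).

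**Figure D4:**
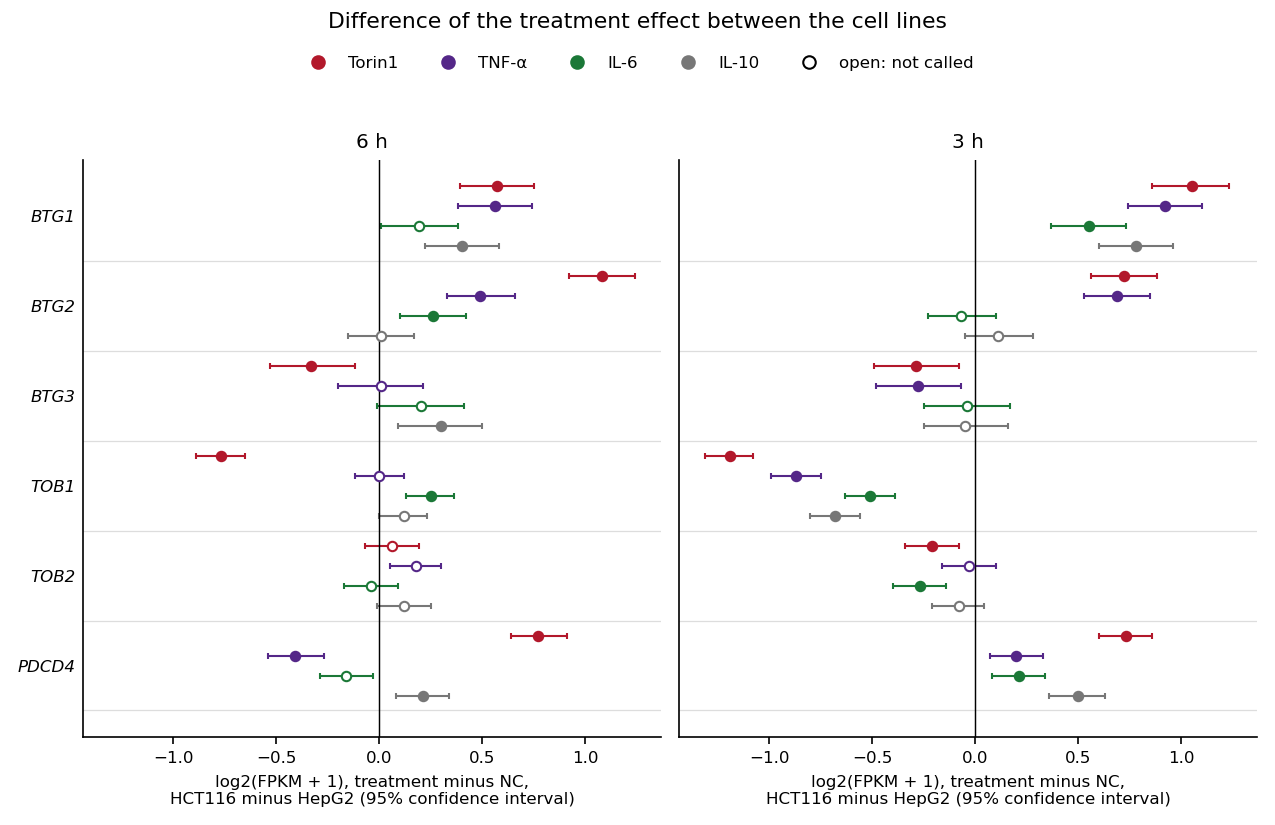
Effect against NC in HCT116 cells minus that in HepG2 cells on log2(FPKM + 1), with 95% confidence intervals from the fit, for 6 h and 3 h; filled symbols are called. TOB1 lies below 0 with each treatment at 3 h, and BTG1, BTG2 and PDCD4 lie above 0 with Torin1 at either hour. All effects share the NC libraries of their line.

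Over the 18 groups the members did not move as a single block. On group means centred within each line, BTG1 and PDCD4 correlated at r = 0.74, with 0.73 in HCT116 cells and 0.75 in HepG2 cells. BTG2, BTG3 and TOB2 formed another trio, with r = 0.65 to 0.80 among them. BTG1 and TOB1 had r = -0.44 over the 9 HCT116 groups and 0.94 over the 9 HepG2 groups, and BTG2 and PDCD4 had -0.38 in HCT116 and -0.85 in HepG2. Among 5708 genes the pattern of BTG1 was most like CHMP1B (r = 0.95), CYTH2 (0.931) and NPC1 (0.928), and that of PDCD4 like TBC1D8 (0.985), WIPI2 (0.968) and SERINC3 (0.963). BTG2 was most like PLK2 (0.936), the cyclin-dependent kinase inhibitor CDKN1A (0.936) and MAP2K3 (0.922), BTG3 like GCH1 (0.94), RAP2C and RIPK2 (both 0.931), TOB1 like FANCE (0.928), PPM1B (0.914) and KLHL21 (0.903), and TOB2 like ADPRS (0.966), NUP153 (0.949) and TGIF2 (0.946). These are descriptions over groups that share treatments and are given without a test.

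FOXO targets are described beside BTG1, and a part of FOXO factors in the level of BTG1 was not tested. The list was chosen with earlier results of these data known, and it holds IRS2, used above to check Torin1. Torin1 against IL-10 called 44.3% of all genes at 3 h and 57.3% at 6 h in HCT116 cells, and 45.5% and 59.0% in HepG2 cells. With Torin1 against IL-10, 10 of 11 tested members of that list rose and 0 fell at 3 h in HCT116 cells (median 0.58, against -0.03 over all genes), and 10 rose and 1 fell at 6 h (median 0.68). In HepG2 cells 11 of 13 rose and 0 fell at each hour, with medians of 0.73 and 0.94. CCNG2, an atypical cyclin, rose by 2.23 ± 0.073 and KLHL24, an ubiquitin ligase adaptor, by 1.55 ± 0.059 at 3 h in HCT116 cells (adjusted p = 7.33e-15 and 5.19e-14). CCNG2 averaged 9.74 ± 0.083 FPKM with Torin1 at 3 h and 1.60 ± 0.232 FPKM with IL-10 in HepG2 cells. With TNF-α against IL-10 in HCT116 cells, 2 of the 11 FOXO targets rose and 2 fell at 3 h (median -0.1, with 36.5% of all genes called). At 6 h 2 rose and 6 fell (median -0.16, with 42.3% called). In HepG2 cells 4 of 13 rose and 1 fell with TNF-α at 3 h (median 0.02, with 16.1% called). At 6 h 6 rose there and 2 fell (median 0.13, with 34.8% called). At 6 h against 3 h with Torin1 in HCT116 cells, 2 rose and 3 fell (median -0.03, with 30.4% of all genes called). The same comparison in HepG2 cells gave 5 that rose and 3 that fell (median 0.12, with 36.4% called).

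p53 targets, a group to which BTG2 belongs by background knowledge, did not move one way with Torin1 against IL-10. That comparison called 44.3% to 59.0% of all genes. IL-10 itself differed from NC at 3 h in HCT116 cells, where 11 of 15 rose and 1 fell (median 0.25). Torin1 against NC there gave 12 that rose and 2 that fell (median 0.32), and 6 and 4 in HepG2 cells (median 0.03). Against IL-10, 7 of 15 rose and 3 fell at 3 h in HCT116 cells (median 0.06) and 5 rose and 6 fell in HepG2 cells (median 0.04); at 6 h 6 rose and 7 fell in HCT116 cells (median -0.06) and 3 rose and 8 fell in HepG2 cells (median -0.35). CDKN1A, which halts the cell cycle, fell by 1.18 ± 0.073 at 3 h (3.77e-11) and 1.30 ± 0.073 at 6 h (2.74e-12) in HepG2 cells, beside BTG2. With TNF-α against IL-10 at 3 h in HCT116 cells, where 36.5% of all genes were called, 6 of 15 rose and 3 fell. BBC3, a pro-apoptotic BCL2 relative, led them (2.37 ± 0.092, limma, adjusted p = 1.26e-14). At 6 h against 3 h with Torin1 in HepG2 cells 13 of 15 fell and 0 rose, with a median of -0.51 and 36.4% of all genes called. This fall was not particular to Torin1. In HepG2 cells 10 fell with TNF-α (25.4% of all genes called), 9 with IL-6 (23.5%) and 8 with IL-10 (16.0%). In HCT116 cells 10 fell with Torin1 (30.4%), 9 with TNF-α (37.3%), 9 with IL-6 (18.4%) and 10 with IL-10 (20.0%). With each of these 0 to 1 rose.

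Immediate early genes fell between the hours in most treatments, beside BTG2. Of all genes in HepG2 cells, 36.4% were called between the hours with Torin1, 25.4% with TNF-α, 23.5% with IL-6 and 16.0% with IL-10. In HCT116 cells the shares were 30.4%, 37.3%, 18.4% and 20.0%. In HepG2 cells 11 of 19 fell with Torin1, 18 with TNF-α, 18 with IL-6 and 19 with IL-10, and 0 rose; medians were -0.26, -0.71, -0.66 and -0.73. In HCT116 cells 19 of 23 fell with Torin1, 17 with TNF-α, 16 with IL-6 and 13 with IL-10, and 0 to 2 rose. With TNF-α against IL-10 at 3 h in HCT116 cells, 36.5% of all genes were called. Of the immediate early genes there 15 of 23 rose and 6 fell (median 0.35). JUNB was among those that rose, by 1.51 ± 0.053 (limma, adjusted p = 2.53e-15).

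Genes of the machinery linked to these proteins showed changes of either sign. Torin1 against IL-10 called 44.3% of all genes at 3 h and 57.3% at 6 h in HCT116 cells. In HepG2 cells it called 45.5% and 59.0%, and calls of either sign were common among all genes too. Of 15 deadenylation genes tested in HCT116 cells 4 rose and 3 fell with Torin1 against IL-10 at 3 h (median 0.06), and 7 rose and 3 fell at 6 h (median 0.03); of 14 in HepG2 cells 5 rose and 2 fell at 3 h and 6 rose and 3 fell at 6 h (both medians 0.06). CNOT8, a deadenylase that BTG and TOB proteins bind, rose by 0.58 ± 0.041 at 3 h in HepG2 cells (4.00e-10), with 11.5 ± 0.347 FPKM with Torin1 and 7.42 ± 0.477 FPKM with IL-10. Of 9 genes listed as linked to BTG and TOB proteins, not all of them binding partners, 2 rose and 3 fell with Torin1 at each hour in HCT116 cells. Among them cyclin D1 (CCND1) fell by 0.34 ± 0.053 at 3 h (limma, adjusted p = 2.35e-05). Of 12 partners and regulators of PDCD4, 3 rose and 8 fell at 6 h in HCT116 cells (median -0.15), and 3 rose and 5 fell in HepG2 cells (median -0.05). EIF4E, which binds the cap, fell by 0.52 ± 0.038 at 6 h in HCT116 cells (2.13e-10) and EIF4EBP1, its repressor, by 0.54 ± 0.053 in HepG2 cells (1.82e-08). BTRC, which marks PDCD4 for degradation, fell by 0.33 ± 0.059 with Torin1 at 6 h in HCT116 cells (6.24e-05) and rose by 0.97 ± 0.059 with TNF-α at 6 h (3.70e-11). Of 10 proliferation genes 5 rose and 5 fell with Torin1 against IL-10 at 3 h in HCT116 cells, and 6 rose and 3 fell in HepG2 cells; at 6 h 3 rose and 5 fell in HCT116 cells and 2 rose and 5 fell in HepG2 cells. Of 4 genes tested of the receptor list, which also holds MTOR, 1 rose and 1 fell at 3 h and 2 rose and 1 fell at 6 h in HCT116 cells, and 3 rose and 0 fell at each hour in HepG2 cells. A single list median near 0 can hold genes that moved in either direction, and none of these lists was tested as a set.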

How the data were processed

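Poly(A) RNA of 54 libraries was, per the labels' protocols, read from both ends on an MGI sequencer. FPKM values per gene entry are as deposited by the authors in 1 table; the submitters' processing notes name FastQC, HISAT2, StringTie, DESeq2 and the build GRCh38, with no versions. The strand setting of the counting is not stated in the labels or notes. The table's 48 columns of comparisons, 16 in number and with no groups named, were not used, and 9390 entries are copy rows of a symbol.

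From the values of each library, whole reads were recovered for 36451 of 36451 genes above 0 (100%, within 0.01 read), which gave 38.5 to 93.7 M reads a library and were used for voom only. Differences on log2(FPKM + 1) were tested with limma 3.58.1 in R 4.3.3 (moderated variances with trend, two-sided, Benjamini-Hochberg over all genes tested, called at an adjusted p below 0.05), on genes that reached 1 FPKM in 3 or more of a line's 27 libraries, with all groups of the line, or of both lines where lines were compared, in the fit. The procedure was also run on simulated counts with the same replicate spread for every gene and changes in a single group. That setting differs from these data, and no result given here rests on it. Tables were handled with Python 3.11.15, pandas 2.3.3 and numpy 2.4.6, and figures drawn with matplotlib 3.10.9. The members and the lists (deadenylation, partners of PDCD4, genes linked to BTG and TOB, p53 targets, FOXO targets, immediate early genes, proliferation, receptors and cell type markers) were chosen with earlier results of these data known. The number of members called is given for every comparison, but the difference of each member is not printed for all of them. Of a list, genes among the 3 called with the largest difference are named. The alternatives were pseudocount 0.1, no filter and a filter at 5 FPKM, scaling by median of ratios or total FPKM, a replicate block, a fit of only the groups compared, voom, and leaving out each library.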

Additional observations from a re-analysis of the deposited data

Results flagged for a closer look

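The effect against NC stood apart between the lines in 31 of 48 cases of a member in a treatment group, as called by limma on the difference itself, HCT116 minus HepG2, on log2(FPKM + 1); by treatment group the same fit called 15.8% to 50.1% of all genes. These differences are built from the effects against NC, which are taken to have guided the choice of the genes, so they are given as values and nothing is read from their number. Leaving out single libraries ended 6 of the 31 calls: BTG2 with IL-6 at 6 h, BTG3 with Torin1 and with TNF-α at 3 h and with IL-10 at 6 h, and PDCD4 with TNF-α at 3 h and with IL-10 at 6 h. For BTG1 the difference was 1.05 with Torin1 at 3 h and 0.57 at 6 h, 0.92 with TNF-α at 3 h and 0.56 at 6 h, 0.55 with IL-6 at 3 h, and 0.78 with IL-10 at 3 h and 0.4 at 6 h. For BTG2 the difference was 0.72 with Torin1 at 3 h and 1.08 at 6 h, 0.69 with TNF-α at 3 h and 0.49 at 6 h, and 0.26 with IL-6 at 6 h. For BTG3 it was -0.29 with Torin1 at 3 h and -0.33 at 6 h, -0.28 with TNF-α at 3 h and 0.3 with IL-10 at 6 h. For TOB1 it was -1.19 with Torin1 at 3 h and -0.77 at 6 h, -0.87 with TNF-α at 3 h, -0.51 with IL-6 at 3 h and 0.25 at 6 h, and -0.68 with IL-10 at 3 h. For TOB2 it was -0.21 with Torin1 at 3 h and -0.27 with IL-6 at 3 h. For PDCD4 it was 0.73 with Torin1 at 3 h and 0.77 at 6 h, 0.2 with TNF-α at 3 h and -0.41 at 6 h, 0.21 with IL-6 at 3 h, and 0.5 with IL-10 at 3 h and 0.21 at 6 h.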

How the results depend on the processing

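Of 270 tests of a member, 175 were called; 135 of these were called with the same sign in every alternative run, 40 were lost in at least 1, 18 others were gained and 0 called ones changed sign. Leaving out each library in turn gave 54 to 62 calls against NC (61 with all libraries), 41 to 43 against IL-10 (42), 33 to 36 between the hours (35), 6 to 6 between untreated lines (6) and 27 to 32 for the line difference (31). Scaling by total FPKM, which shifted the median of all genes by -0.11 to 0.2, gave 55 calls against NC, 43 against IL-10, 32 between the hours and 26 line differences; 14 of those 26 (53.8%) were upward, compared with 20 of 31 (64.5%) as deposited. No count moved by over 1.5 times. Replicate numbers did not pair the libraries: deviations of same-numbered libraries correlated at -0.105 to 0.117 in HCT116 and -0.139 to 0.119 in HepG2 cells. The replicate block gave 62 calls against NC, 42 against IL-10, 35 between the hours, 6 between untreated lines and 31 line differences. Depth left 706 reads or more behind each level.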
